A study of Mus musculus with 4 samples.

Results

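Interferon-stimulated genes are the effector genes that cells switch on, or keep at a low standing level, through interferon receptors. The set described here has 47 members of 55536 annotated genes. Its members were listed by name, not by their values, and were found by gene symbol in the deposited tables. They belong to the Ifit, Isg15, Oas, Mx, Gbp, immunity-related GTPase, RIG-I-like receptor, Schlafen and other interferon-induced families. All 47 symbols were matched.

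The series analysed here measured RNA in bone marrow-derived macrophages, primary cells grown out of mouse marrow. The strain was C57BL/6J, and all 4 libraries came from cells given lipid A at 100 ng/ml for 15 minutes. Lipid A is the part of bacterial lipopolysaccharide that Toll-like receptor 4 recognises. Total RNA of the cytosolic fraction was depleted of ribosomal RNA before sequencing, and the 4 libraries form 1 group, numbered by the labels as biological replicates 1 to 4. Each library has its own biosample record, and all 4 name the same donor record. Sex and age were not collected, per the labels, and no modified allele or other agent is named. Nothing in the labels ties a replicate to its own animal or culture. The p-values below therefore reflect how far these 4 libraries scatter, and that scatter may be technical. No unstimulated library was analysed here. A standing level and a response within 15 minutes therefore cannot be told apart, and every value below is a level in stimulated cells.

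Type I interferons bind the receptor of Ifnar1 and Ifnar2, whose kinases Jak1 and Tyk2 activate transcription factors. A complex that holds Stat2 and Irf9 then binds the interferon-stimulated response element, or ISRE, in the promoters of most of these genes. Interferon gamma acts through Ifngr1 and Ifngr2 on the gamma-activated site, or GAS, a route on which many Gbp and immunity-related GTPase genes depend. Macrophages are known to hold many of these genes at a standing level without infection, and the products detect foreign nucleic acid, block viral entry, translation and replication, and attack vacuoles that hold microbes.

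Library depth ran from 30088678 expected counts in replicate 1 to 47961117 in replicate 2. A count of 0 allowed up to 0.0997 CPM, a count scaled to the library total, in replicate 1 and 0.0626 CPM in replicate 2; such floors cover counting error only. RNA genes of the 7SL family held 57.1 to 63.3% of all TPM, the length-corrected abundance used here to compare genes. Replicate 1 stood apart from the other 3 over the whole transcriptome, so the calls, ranks, extremes and SDs below are given with and without it, the alternatives for ranks and extremes having been added after seeing the data. All 10 macrophage markers were at 1 TPM or more. No T cell marker and no NK cell marker reached a mean of 1 TPM, with summed levels of at most 0.38 and 0.19 TPM in any library. Neutrophil markers summed to between 20.9 and 40.7 TPM, and the 5 stromal markers to 1.5 TPM in replicate 3 and at most 0.14 TPM elsewhere. These are bulk samples, in which fewer cells of a type and less RNA per cell cannot be told apart.

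The promoters were read first, since members of a shared pathway may share elements. RefSeq sequences of build GRCm38.p6, from 250 bases before to 50 bases after an annotated start, were at hand for 35 of the 47 members. The ISRE core was searched as GAAANNGAAA on both strands, where N is any base. It was found in 22 of the 35 members (62.9%), against 3.99% of the 27025 genes with such a promoter. The longer form GAAANNGAAACT, which contains the core, was found in 14 of 35 members (40.0%) and in 0.303% of all genes. The GAS form TTCNNNGAA, which reads the same on both strands and can overlap an ISRE core, was found in 10 of 35 members (28.6%) and in 9.55% of all genes. A match describes the letters in this window, and is not evidence that a factor binds there.

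The stretches below were chosen to show how the core sits in members of different level and behaviour. Letters are 5′ to 3′ on the strand of the gene, and capitals mark the ISRE core (read on the opposite strand, it appears as TTTCNNTTTC) and the GAS form.
Ifit1 (chr19:34640770-34640828, plus strand, 119 to 61 bases before the start): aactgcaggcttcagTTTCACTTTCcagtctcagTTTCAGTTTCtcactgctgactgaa
Ifit3 (chr19:34583358-34583431, plus strand, 171 to 98 bases before the start): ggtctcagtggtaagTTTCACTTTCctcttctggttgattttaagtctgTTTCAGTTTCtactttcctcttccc
Ifit3b (chr19:34607754-34607827, plus strand, 203 to 130 bases before the start): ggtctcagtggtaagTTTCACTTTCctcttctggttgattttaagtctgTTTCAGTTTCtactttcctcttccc
Isg15 (chr4:156200860-156200911, minus strand, 93 to 42 bases before the start): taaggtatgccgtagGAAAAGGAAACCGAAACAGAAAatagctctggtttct
Rsad2 (chr12:26456548-26456587, minus strand, 135 to 96 bases before the start): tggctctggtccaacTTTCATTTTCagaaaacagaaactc
Gbp5 (chr3:142496684-142496793, plus strand, 250 to 141 bases before the start): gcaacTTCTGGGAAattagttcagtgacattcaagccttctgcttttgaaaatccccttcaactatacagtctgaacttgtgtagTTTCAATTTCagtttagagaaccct
Oas1a (chr5:120907526-120907638, minus strand, 113 to 1 bases before the start): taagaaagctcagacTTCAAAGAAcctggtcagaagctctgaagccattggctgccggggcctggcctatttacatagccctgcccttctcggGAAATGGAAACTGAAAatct
Oas1g (chr5:120887614-120887646, minus strand, 33 to 1 bases before the start): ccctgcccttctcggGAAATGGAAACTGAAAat
Bst2 (chr8:71537572-71537623, minus strand, 151 to 100 bases before the start): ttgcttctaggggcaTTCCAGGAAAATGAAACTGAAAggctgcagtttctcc
Ifi35 (chr11:101448292-101448351, plus strand, 120 to 61 bases before the start): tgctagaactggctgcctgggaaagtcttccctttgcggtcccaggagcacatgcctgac

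Ifit3 and Ifit3b carried the same 74 bases, with 2 cores each, and the 33 bases shown of Oas1g lay whole within the stretch of Oas1a. Isg15 held 3 overlapping cores, the only member with 3, and 12 members held 2 or more. In Bst2 a GAS match overlapped the first of 2 overlapping ISRE cores. The Ifi35 window held no ISRE core, and the stretch shown is where several other members carry theirs. Of the 22 members with a core, 11 had it on the strand of the gene and 11 on the opposite strand. In 16 of them every match lay before the start.

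**Figure D1:**
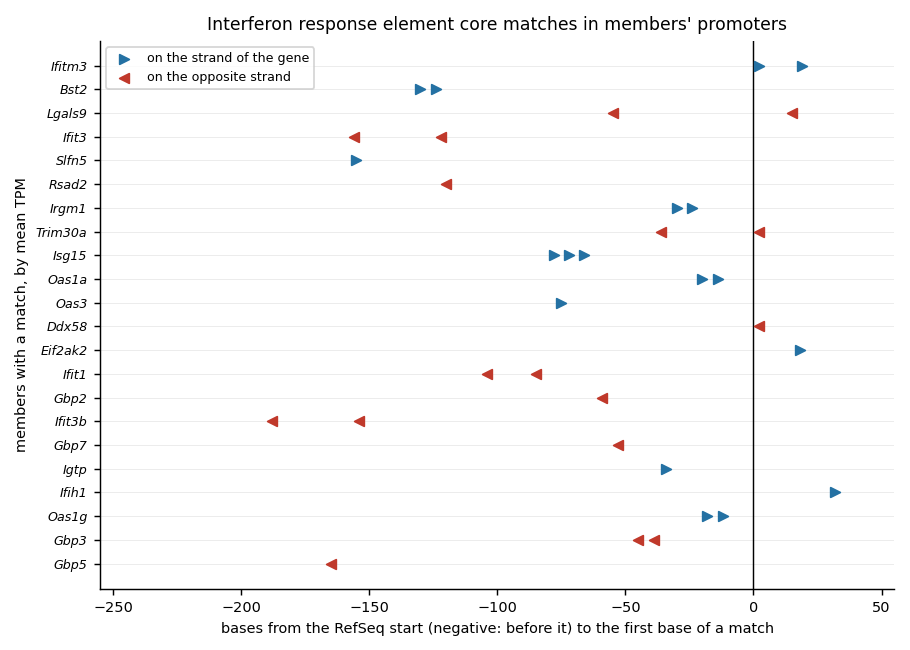
Place of each ISRE core match in the RefSeq promoter window of the 22 members that held it: x axis, bases from the annotated start to the first base of the match (negative before the start); y axis, members by mean TPM; right-pointing marks are on the strand of the gene, left-pointing ones on the opposite strand. Matches of 16 members lie wholly before the start, and Isg15 carries 3.

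All 47 members reached 1 TPM in all 4 libraries, while 18.6% of annotated genes had a mean of at least 1 TPM. The median of the members' mean TPM was 19.6, against 4.36 for the 14041 genes that averaged 10 or more counts per library, which are the genes tested below and include every member. Mean levels ran from 309 TPM for Ifitm3 to 2.28 TPM for Mx2, a 135-fold range. The 5 members at 100 TPM or more together held 47.5% of the members' TPM, 31 lay between 10 and 100 TPM, and 11 lay under 10 TPM. The 47 genes took 0.496%, 0.717%, 0.640% and 0.753% of the annotated counts in replicates 1, 2, 3 and 4. On the log2(TPM + 1) scale the members' median level was 4.40 ± 0.33 (SD, n = 4).

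Ifitm3, which blocks fusion of viral and endosomal membranes, was at 271, 292, 203 and 469 TPM in replicates 1 to 4. Lgals3bp, a secreted glycoprotein that binds galectins, was at 299.6, 263, 276 and 359.9 TPM (mean 299.6 ± 43.0, SD, n = 4). These 2 means lay within each other's spread, and their order changed between libraries. Bst2, the tetherin that holds budding virions at the membrane, followed at 172, 122, 111 and 174 TPM. The small mitochondrial protein Ifi27l2a was at 173, 131, 95.9 and 150.1 TPM. Slfn2, of the Schlafen family that acts on RNA and translation, was at 102, 129, 115 and 186 TPM. The means of Bst2, Ifi27l2a and Slfn2 lay within 1 SD of each other, whereas Lgals3bp was above Bst2 in all 4 libraries.

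Of the members below them, those with the next highest means and no call by edgeR in the comparisons that follow are given here. Lgals9, or galectin-9, was at 85.4, 77.9, 65.1 and 111 TPM. Ifi204, a DNA-binding sensor, was at 73.2, 73.7, 73.4 and 99.0 TPM, so that 3 libraries lay close together and replicate 4 above them. Oasl2, of the oligoadenylate synthetase family, was at 61.9, 64.4, 58.6 and 80.2 TPM. Rtp4, a receptor transporter protein, was at 63.0, 54.1, 46.3 and 81.7 TPM. Trim30a, a ubiquitin ligase that dampens inflammatory signalling, was at 35.6, 34.0, 29.4 and 50.5 TPM, and Irgm1, the regulatory GTPase of its family, at 39.9, 48.0, 37.5 and 66.2 TPM. Replicate 4 held the highest TPM in each of these 6. The median TPM of all members was also highest there, at 28.3 against 19.2, 18.05 and 16.4 in replicates 1, 2 and 3. On the scaled counts used further on, only Rtp4 of these 6 was highest in replicate 4, and the rest in replicate 2. The RNA helicase sensors had lower mean TPM than these 6. Ddx58, which encodes RIG-I, averaged 23.6 TPM, Dhx58 19.3 TPM and Ifih1, which encodes MDA5, 10.7 TPM. Eif2ak2, or PKR, the kinase that halts translation when it meets double-stranded RNA, averaged 18.8 TPM.

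At the bottom of the order were Isg20, an RNA exonuclease, and Mx2. Isg20 was at 1.47, 2.93, 3.07 and 3.32 TPM, and Mx2 at 1.62, 2.03, 2.11 and 3.38 TPM. Mx1, the nuclear antiviral GTPase whose gene carries a deletion in C57BL/6 mice, was at 7.16, 8.64, 10.2 and 13.1 TPM. Some GTPases of the vacuole were also low, with Gbp5 at 1.51, 4.84, 3.94 and 10.3 TPM and Iigp1 at 2.74, 4.63, 4.87 and 6.69 TPM. All of these still stood well above the counting floor, since Isg20 had 56 counts in replicate 1, the fewest of any member.

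**Figure D2:**
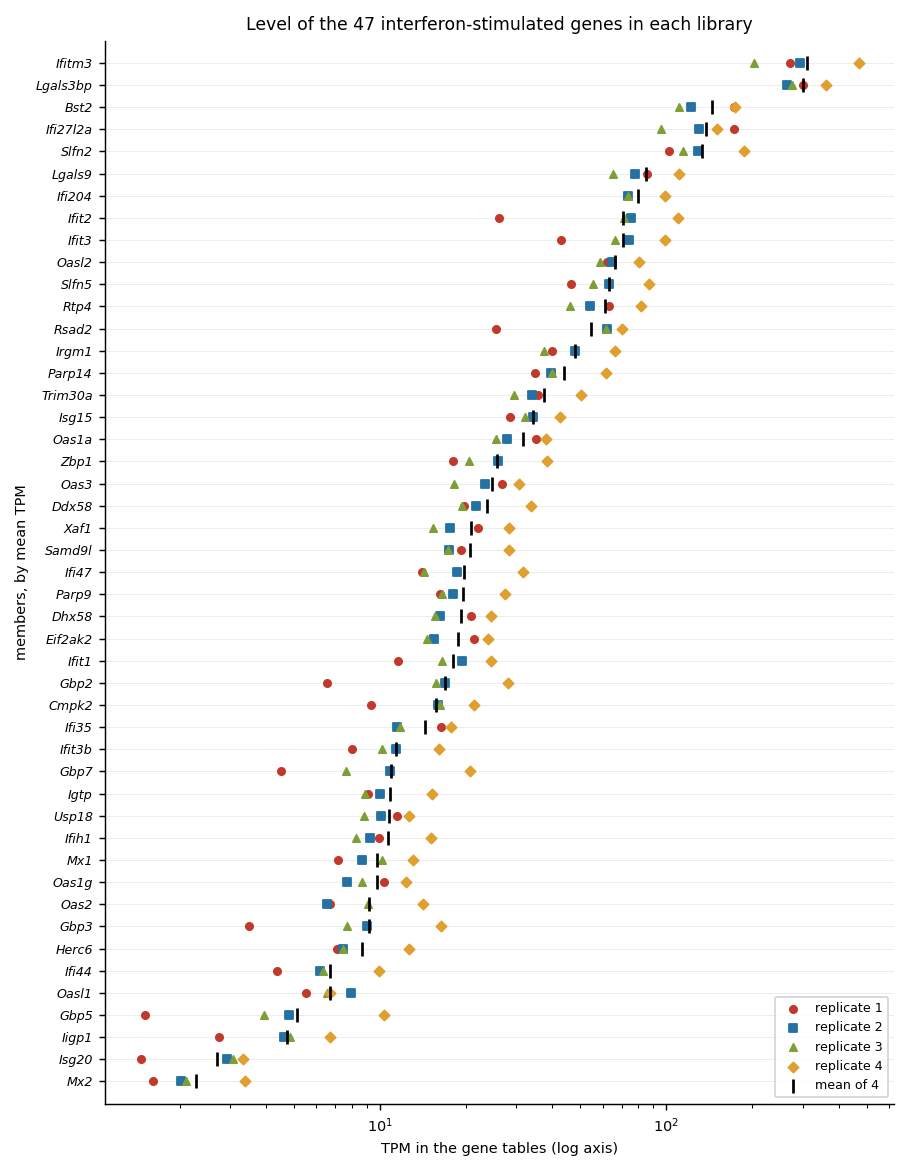
TPM of the 47 members in each library (x axis, log scale), ordered by mean TPM from Ifitm3 at 309 to Mx2 at 2.28 (y axis); coloured points are the 4 replicates and black bars their mean. Replicate 1 lies far to the left of the other 3 for Ifit2, Rsad2 and the Gbp genes, and within or beyond them for Bst2, Oas1a and Ifi35.

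The order of the members was broadly shared by the libraries, and neighbours in it mostly were not separable. Spearman's rho of member TPM between 2 libraries was 0.932 to 0.989 over the 6 pairs, a description across genes, which are not independent. Of 46 neighbouring pairs by mean TPM, 5 kept the same order in all 4 libraries. They were Lgals3bp above Bst2, Slfn2 above Lgals9, Ifi35 above Ifit3b, Herc6 above Ifi44, and Iigp1 above Isg20. For members 5 ranks apart, 32 of 42 pairs kept their order in all 4. The median member moved over 4 ranks between its highest and lowest library, and 21 members moved 3 ranks or fewer. Gbp2 moved most, from rank 39 in replicate 1 to ranks 27, 26 and 25 in replicates 2, 3 and 4. Ifit2 was at rank 18 in replicate 1 and at rank 7 in each of the other 3. Over replicates 2, 3 and 4 alone, the median member moved over 2 ranks, 35 members moved 3 ranks or fewer and Spearman's rho was 0.976 to 0.989. Of 46 neighbouring pairs 14 then kept their order in all 3 libraries, a lower bar than 4.

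The libraries were then compared gene by gene on TMM-scaled CPM, a count relative to a library size adjusted by edgeR, which serves to compare 1 gene between libraries and not 2 genes with each other. Each library was set against the other 3 with edgeR's quasi-likelihood test, and a gene is called where the Benjamini-Hochberg adjusted p over all 14041 genes was under 0.05. In replicate 1, 24 of 47 members were called lower and 0 higher. Of all tested genes, 22.0% were called in that comparison, 7.58% lower and 14.5% higher. The members' median log2 fold change was -0.57, while that of all tested genes was -0.005, and 43 of 47 members lay below 0 against 50.4% of genes. With the DESeq2 Wald test 30 members were called, all lower, against 23.3% of all tested genes in either direction. In edgeR 31 members reached an unadjusted p under 0.05, as did 36.3% of tested genes. Folds ran from -2.26 for Gbp5 to 0.10 for Ifi27l2a, with 12 members at or below -1 and 9 above -0.2. Parp14, Ddx58 and Igtp missed the threshold without replicate 2, as did Isg15 and Isg20 without replicate 3. With target-table counts, 16 members were called, and Slfn2, Slfn5, Parp14, Isg15, Ddx58, Parp9, Igtp and Isg20 were not. The other 16 of the 24 stayed called in every setting tried.

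For the other 3 libraries edgeR called 0 members. In those comparisons 0 (0%) of the 14041 genes were called by edgeR in either direction, 0 members reached an unadjusted p under 0.05, and DESeq2 called 0 members too. Each of these comparisons keeps replicate 1 among the 3 libraries that set the spread. Without replicate 1, edgeR again called 0 members in replicates 2, 3 and 4, and DESeq2 was not run on that subset. Of all 14306 genes tested there, edgeR called 82 (0.573%) in replicate 2 and 0 in replicates 3 and 4. The members' median log2 fold change against the other 3 libraries was 0.24, 0.05 and 0.18 for replicates 2, 3 and 4, and 0.10, -0.12 and 0.04 without replicate 1.

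**Figure D3:**
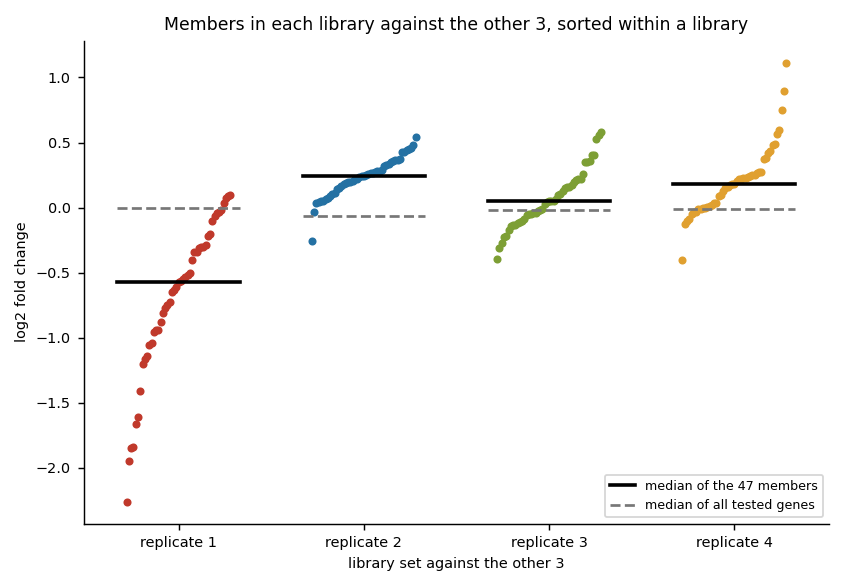
Log2 fold change of every member (points, sorted within a library) in each library against the other 3; solid bars are the members' medians and dashed bars the medians of all tested genes. The points of replicate 1 reach from -2.26 to 0.10 with a median of -0.57, while the medians of replicates 2, 3 and 4 are 0.24, 0.05 and 0.18.

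Without regard to the test, 39 of 47 members had their lowest log2 CPM in replicate 1, as did 33.5% of tested genes. Replicate 2 held the lowest value of 1 member (20.9% of genes), replicate 3 of 6 (19.9%) and replicate 4 of 1 (25.8%). The highest value lay in replicate 1 for 2 members (41.4% of genes), in replicate 2 for 21 (13.2%), in replicate 3 for 6 (19.6%) and in replicate 4 for 18 (25.7%). A few orders of the libraries covered most of the set. The order 1, 3, 2, 4 from low to high was shown by 16 members and by 7.29% of genes, and the order 1, 3, 4, 2 by 10 members and 4.78% of genes. Scaled by library totals instead of TMM, all tested genes shifted together, with a median difference from the mean of the other 3 libraries of 0.13, -0.12, -0.13 and 0.09 in replicates 1 to 4, against 0.01, -0.04, 0.004 and 0.0007 with TMM. Among replicates 2, 3 and 4 alone, with TMM, 32 members were lowest in replicate 3 (31.9% of genes), 11 in replicate 4 (35.2%) and 4 in replicate 2 (32.8%), and 22, 19 and 6 were highest in replicates 2, 4 and 3 (29.2%, 35.8% and 35.1%). With library totals 34 members were lowest in replicate 1 and 13 in replicate 3.

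The Ifit proteins, which bind RNA lacking the cap marks of the host, were all called lower in replicate 1. Ifit2 was at 139 TMM-scaled CPM in replicate 1 and at 550.3, 522 and 539 in replicates 2, 3 and 4, a log2 fold change of -1.95 ± 0.12 (SE, edgeR adjusted p = 0.00279). Ifit3 was at 97.8 in replicate 1 and at 230.0, 207 and 208 in the others, a change of -1.14 ± 0.11. Ifit1 was at 42.2 against 96.2, 82.1 and 82.1, a change of -1.04 ± 0.13. For Ifit3b the values were 21.3 against 41.1, 37.1 and 39.5, a change of -0.88 ± 0.11. In each of the 4 genes replicate 1 lay below the other 3, which lay close together. Ifit3 and Ifit3b are near-identical copies with the same promoter stretch, so reads may be shared between them. The posterior SD of the count, an estimate by the authors' tool, was at most 0.29% of its mean for Ifit3 and 1.35% for Ifit3b. Summed over the 4 genes, replicate 1 had 301 CPM and the others 918, 848 and 868, so the mean of the other 3 was 2.92-fold that of replicate 1.

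The guanylate-binding proteins, GTPases that coat and break the vacuoles of microbes, differed most. Gbp5, which also promotes inflammasome assembly, was at 6.51 CPM in replicate 1 and at 28.3, 23.2 and 41.9 in the others, a change of -2.26 ± 0.40 (SE, edgeR adjusted p = 0.0187). Gbp3 was at 12.7 against 44.5, 38.3 and 53.6, a change of -1.85 ± 0.22. Gbp2 was at 22.5 against 79.1, 73.9 and 88.7, a change of -1.84 ± 0.14. Gbp7 was at 33.5 against 109, 74.4 and 135, a change of -1.66 ± 0.36. In all 4, replicate 1 was lowest, replicate 3 next and replicate 4 highest. Their summed CPM was 75.2 in replicate 1 and 260.5, 209.8 and 319 in the others, the mean of which was 3.50-fold that of replicate 1. Among the immunity-related GTPases, which act beside them at the vacuole, Iigp1 was at 10.9 against 24.5, 26.4 and 24.3 (-1.20 ± 0.11) and Igtp at 24.2 against 36.4, 32.4 and 37.4 (-0.55 ± 0.12), both called. Ifi47 was at 30.8 against 55.7, 42.9 and 63.8 (-0.81 ± 0.23) and Irgm1 at 114 against 186, 146 and 174 (-0.57 ± 0.16). Neither passed by edgeR, but DESeq2 called both. Igtp shares exon bases with Irgm2, and Gbp7 and Ifi47 with other models on the same strand, so their reads may be divided in more than 1 way.

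Rsad2 and Cmpk2 lie side by side on chromosome 12 (GRCm38, 26442746 to 26479837). Rsad2 encodes viperin, which makes a chain-terminating nucleotide that stops viral polymerases. Rsad2 was at 135 CPM in replicate 1 and at 450.1, 446 and 344 in the others, a change of -1.61 ± 0.21 (SE, edgeR adjusted p = 0.00887). Cmpk2, a mitochondrial nucleotide kinase, was at 41.6 against 97.1, 98.4 and 84.6, a change of -1.16 ± 0.12. Unlike the Gbp genes, both had less in replicate 4 than in replicates 2 and 3. The other membrane proteins did not pass the test. Ifitm3 was at 182, 275, 193 and 304 CPM in replicates 1 to 4, with replicate 3 near replicate 1, and its change of -0.50 had an SE of 0.27. Rtp4 was at 90.4, 108, 93.8 and 111 CPM. Bst2 was at 145, 142, 131 and 140 CPM, among the narrowest ranges of the set.

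Of the Isg15 system, Isg15 is the ubiquitin-like protein that is attached to other proteins, Herc6 the ligase that attaches it in the mouse, and Usp18 the protease that removes it and restrains the receptor. Isg15 was at 22.4 CPM in replicate 1 and at 37.6, 35.7 and 32.3 in the others, a change of -0.65 ± 0.12 (SE, edgeR adjusted p = 0.0237). Herc6 was at 43.9 against 66.2, 64.9 and 70.4, a change of -0.61 ± 0.09. Usp18 was at 26.4 against 31.4, 27.2 and 26.4, a change of -0.10 ± 0.13 that did not pass. Both dynamin-like Mx genes were called: Mx1 was at 20.4 against 35.3, 45.9 and 36.1 (-0.94 ± 0.19) and Mx2 at 4.04 against 7.48, 7.54 and 8.22 (-0.94 ± 0.16).

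Of the nuclease and translation effectors 3 of 4 were called. Isg20 was at 1.75 CPM in replicate 1 and at 4.94, 5.20 and 3.87 in the others, a change of -1.41 ± 0.29. Slfn5 was at 364 against 671, 586 and 610.1 (-0.77 ± 0.14), and Slfn2 at 220.3 against 379, 339 and 372 (-0.72 ± 0.12). Slfn5 overlaps an antisense gene, Slfn5os, whose reads cannot be told apart from its own without strand. Samd9l, which limits translation, was at 147 against 180.4, 180.4 and 198. It did not pass by edgeR, but DESeq2 called it. Of Ifi44, a cytoplasmic protein of little known function, replicate 1 had 16.04 CPM and the others 30.5, 29.7 and 33.0, a change of -0.95 ± 0.11 that was called.

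Changes of the sensors of foreign nucleic acid differed in size. Zbp1, which binds left-handed nucleic acid and triggers cell death, was at 23.8 CPM in replicate 1 and at 50.8, 44.2 and 53.4 in the others, a change of -1.06 ± 0.14 (SE, edgeR adjusted p = 0.00982). Ddx58 was at 102 against 154, 133 and 153, a change of -0.52 ± 0.12 (edgeR adjusted p = 0.0385), the called member nearest to 0. Ifih1 (-0.34) and Ifi204 (-0.40) had negative changes that did not pass by edgeR, but DESeq2 called Ifi204. Dhx58, the regulatory helicase that lacks signalling domains, was at 65.8, 69.8, 65.3 and 68.5 CPM, and Eif2ak2 at 124, 125, 108 and 118. For these last 2, replicate 1 lay inside the range of the others. Dhx58 overlaps an antisense gene, Dhx58os.

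Parp14 and Parp9, of the ADP-ribosyltransferase family, lie together on chromosome 16. Parp14 was at 371 CPM in replicate 1 and at 577, 566 and 582 in the others, a change of -0.63 ± 0.11. Parp9, which shares exon bases with Dtx3l on the opposite strand, was at 60.9 against 93.5, 81.6 and 94.8, a change of -0.56 ± 0.12. Both were called. Trim30a (-0.30 ± 0.13), Xaf1, an antagonist of a cell death inhibitor (-0.30 ± 0.10), and the galectin genes Lgals3bp (-0.31 ± 0.14) and Lgals9 (-0.22 ± 0.13) were not called by edgeR. DESeq2 called Lgals3bp. Xaf1 was at 24.2, 29.9, 28.8 and 30.7 CPM in replicates 1 to 4. Ifi35, a scaffold partner of Nmi, was at 27.3, 26.4, 26.6 and 27.2 CPM and had the smallest SD of log2 CPM in the set, 0.025.

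The 6 oligoadenylate synthetase genes had a median log2 fold change of -0.18 in replicate 1, against -0.57 for all members. EdgeR called none of them, as was so for most tested genes, and DESeq2 called Oas2 alone. All 6 changes were below 0 with TMM, while Oas1a, Oas1g and Oas3 lay above the mean of the other 3 libraries when scaled by library totals or taken from the target tables. These enzymes make the short oligoadenylates that activate RNase L, and Oasl1, an inactive relative, restrains translation of Irf7. Oas1a was at 87.4, 94.3, 86.6 and 87.3 CPM in replicates 1 to 4, a change of -0.03 ± 0.09, and Oas1g at 24.2, 25.0, 25.1 and 23.3, a change of -0.02 ± 0.10. Oas3 was at 178, 209.7, 163 and 183 CPM and Oasl2 at 185, 247, 212 and 221. In Oas1a, Oas1g and Oas3, replicate 1 lay inside the range of the others. Oas2 at 34.5 against 45.5, 62.1 and 66.2 (-0.75 ± 0.23, edgeR adjusted p = 0.0793) and Oasl1 at 15.7 against 26.1, 25.1 and 16.9 (-0.53 ± 0.27) had larger changes and larger errors. Summed over the 6 genes the libraries held 525, 648, 574 and 597 CPM. The ratio of summed Ifit to summed Oas CPM was 0.573 in replicate 1 and 1.42, 1.48 and 1.45 in the others, and that of Gbp to Oas 0.143 against 0.402, 0.366 and 0.534; these ratios within a library do not depend on its scaling. Oas1a and Oas1g are close copies, so reads may be shared between them. The posterior SD of the count was at most 0.39% of its mean for Oas1a and 1.39% for Oas1g.

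**Figure D4:**
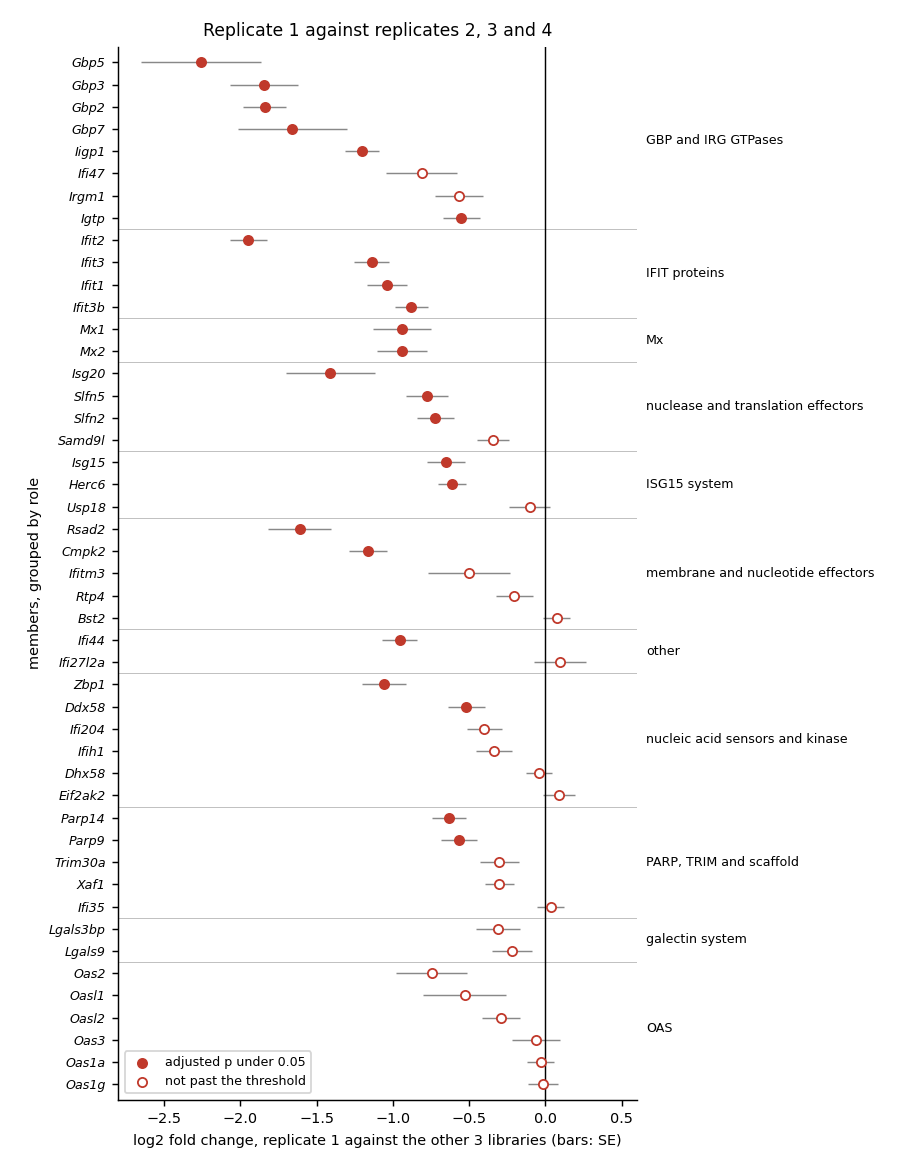
Log2 fold change of each member in replicate 1 against the other 3 libraries (x axis; bars are SE), grouped by role on the y axis; filled points passed an adjusted p under 0.05 and open points did not. The 24 filled points include all Ifit and Gbp genes, and the 6 Oas genes at the bottom are open.

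Changes in replicate 1 were then set beside the promoter, the level and the place in the genome. The median change in replicate 1 was -0.56 for the 22 members with the core and -0.61 for the 13 without it, and 12 of 22 and 6 of 13 were called. Ifit3b and Oas1g both carry 2 cores, as printed above, with changes of -0.88 and -0.02. The 24 called members had a median of 16.3 TPM and the 23 others one of 24.7 TPM. All 4 members of the Gbp cluster on chromosome 3 (GRCm38, 142493978 to 142638008) were called, with changes of -2.26 to -1.66, and all 4 of the Ifit cluster on chromosome 19 (34550694 to 34650009), with changes of -1.95 to -0.88. In the Oas cluster on chromosome 5 (120730333 to 120907521) the changes were -0.75 to -0.02. EdgeR called none of these genes, as was so for most tested genes, and DESeq2 called Oas2 alone. Dhx58 and Ifi35, 764 kb end to end on chromosome 11, had changes of -0.04 and 0.03. Members of a cluster are related copies in part, and so are not independent of each other.

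Of the 47 members, 45 varied between the 4 libraries by more than counting noise, by a Poisson deviance test adjusted over all genes, and so did 82.8% of tested genes. The 2 exceptions were Ifi35 and Oas1g. Without replicate 1, 42 members varied beyond counting (60.1% of genes); without replicate 2 it was 42 (79.1%), without replicate 3 43 (78.8%) and without replicate 4 45 (77.4%). The median SD of log2 CPM was 0.317 for members and 0.255 for tested genes over 4 libraries, and 0.125 against 0.134 without replicate 1. In 9 members 1 library stood apart from 3 that lay close together in log2 CPM (11.2% of tested genes), by a gap that is more than Dixon's limit allows, and in 8 of them it was replicate 1, as the lowest (3.60% of genes). The largest SDs were those of Gbp5 (1.16), Ifit2 (0.97), Gbp3 (0.94), Gbp2 (0.92) and Gbp7 (0.88). Between pairs of libraries the members' median absolute log2 difference was 0.619, 0.477 and 0.639 for replicate 1 against 2, 3 and 4, and 0.161, 0.111 and 0.145 for 2 against 3, 2 against 4 and 3 against 4. Of the 47 members, 35 were lower in replicate 3 than in replicate 4 (median difference -0.09) and 9 lower in replicate 2 than in replicate 3 (median difference 0.15).

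**Figure D5:**
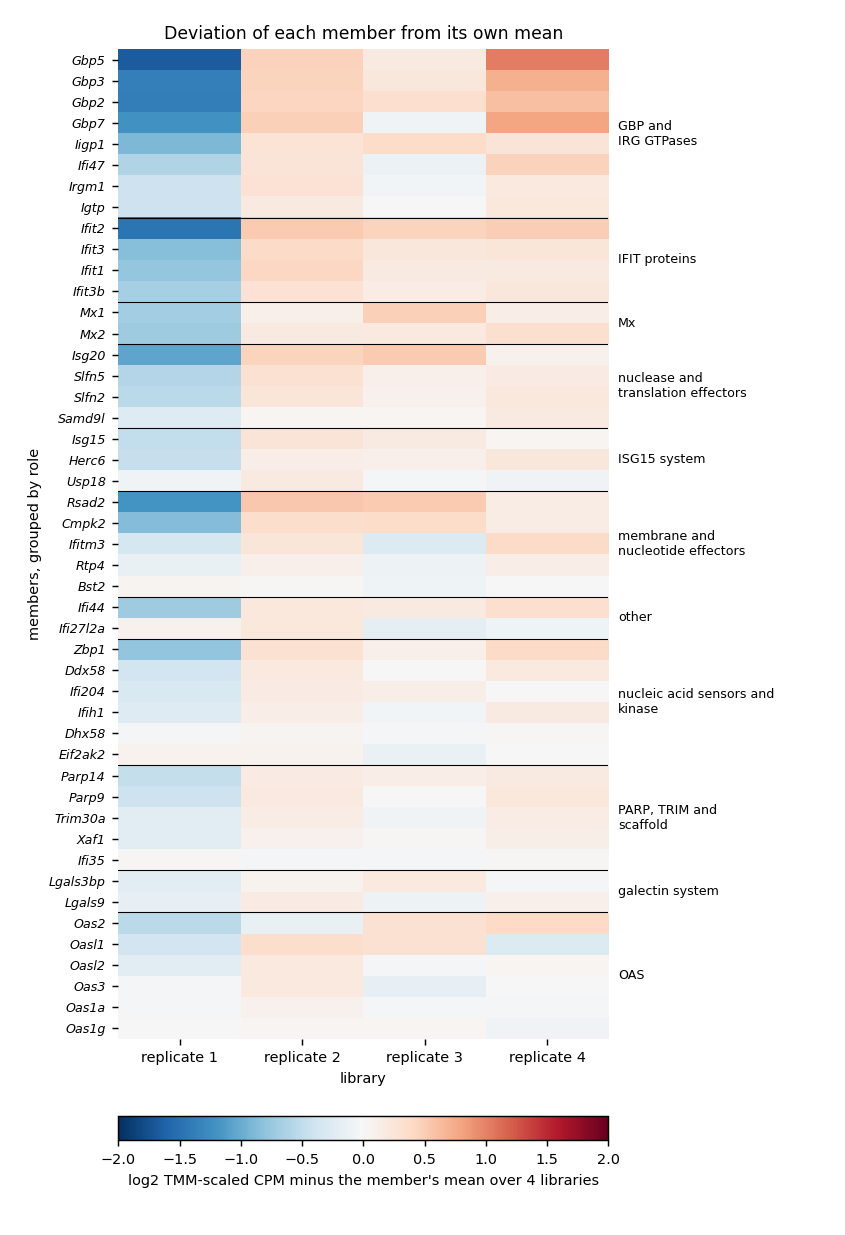
Log2 TMM-scaled CPM of each member minus its own mean over the 4 libraries (colour; blue below, red above), with members grouped by role (rows) and replicates as columns. Replicate 1 is blue for the Gbp, Ifit, Mx and Rsad2 rows and near white for Oas1a, Oas1g, Dhx58, Bst2 and Ifi35; replicate 4 is reddest for Gbp5, at 41.9 CPM.

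Genes of the pathway upstream were taken from a list of 44. Of these 22 had counts enough to be tested. Their median log2 fold change in replicate 1 was -0.24, against -0.005 for all tested genes. The ligands were at or near 0: Ifnb1 was listed at 0, 0.02, 0.02 and 0.08 TPM, Ifng at 0 in all 4 libraries, and 18 listed genes had no count in any library. The subunits of the type I and gamma receptors were present throughout, while the lambda receptor Ifnlr1 was at most 0.01 TPM. Ifnar1 was at 31.2, 18.1, 18.8 and 26.3 TPM and was called higher in replicate 1 (0.36 ± 0.09, SE, edgeR adjusted p = 0.0456). Ifnar2 was at 57.3, 45.6, 47.5 and 65.4 TPM, Ifngr1 at 45.6, 32.4, 31.8 and 49.1 TPM, and Ifngr2 at 24.1, 21.4, 20.5 and 32.3 TPM, none of them called. Of the kinases Tyk2, at 8.51, 9.17, 9.77 and 14.9 TPM, was called lower (-0.58 ± 0.08, edgeR adjusted p = 0.0108). Jak1 (-0.26 ± 0.10) and Jak2 (-0.22 ± 0.08) were not. They were at 37.3, 33.65, 32.4 and 48.5 TPM and at 7.10, 6.09, 6.19 and 8.75 TPM.

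The transcription factors of the pathway were abundant. Stat2 was at 24.0, 26.3, 22.3 and 42.1 TPM and Irf9 at 16.3, 13.9, 13.2 and 20.1 TPM. Their changes in replicate 1 were -0.44 ± 0.12 and -0.18 ± 0.08, and neither passed. Irf7, which amplifies the type I response and is itself interferon-induced, was at 47.8, 63.0, 52.6 and 65.6 TPM (-0.65 ± 0.21, edgeR adjusted p = 0.0850). Irf1, a rapid target of interferon and inflammatory signals, was at 14.9, 18.3, 18.2 and 55.6 TPM, with no call in any comparison. On TMM-scaled CPM it was at 38.6, 69.1, 63.0 and 114 in replicates 1 to 4. Its log2 fold change against the other 3 libraries was -1.09 in replicate 1 and 1.01 in replicate 4. Irf3 was at 9.96, 8.28, 11.4 and 16.5 TPM. Irf2 (-0.33 ± 0.08) and the myeloid factor Irf8 (-1.13 ± 0.11) were called lower. With Ifnar1 and Tyk2 they were the only upstream genes called. Calls in either direction were no more frequent among the tested upstream genes than among all tested genes. Socs1, a feedback inhibitor, was at 0.55, 0.39, 0.48 and 0.69 TPM.

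A wider list held 61 interferon genes outside the set, of which 60 were matched and 59 tested. Its median change in replicate 1 was -0.52, against -0.005 for all tested genes. The 3 most abundant were Ly6e at 233, 225, 170.3 and 349 TPM, Ifitm2 at 149, 205, 151 and 305 TPM, and Shisa5 at 114, 79.3, 83.2 and 107 TPM. Of these Ifitm2, a close relative of Ifitm3, was called lower (-0.84 ± 0.21, edgeR adjusted p = 0.0465). Most calls in the wider list were lower in replicate 1, whereas among all tested genes more were called higher than lower. Slfn9 (1.31 ± 0.11) and Pnpt1 (0.42 ± 0.10) were the only genes of the wider list called higher. No gene of either list was called by edgeR in replicates 2, 3 or 4, where no tested gene was called.

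Other lists also differed between the libraries, and not always in replicate 1 alone. The 11 proliferation genes had a median log2 fold change of 2.21 in replicate 1, where they summed to 430.2 TPM against 105.5 to 144 TPM in the others. Of 10 macrophage markers Itgam (1.02) and Mrc1 (0.86) were called higher and Mertk (-0.81) lower, and the 10 summed to 29273 CPM in replicate 1 against 33615 to 36338. Nuclear-retained RNAs summed to 367 and 286 TPM in replicates 1 and 2 and to 1130.2 and 1077 TPM in replicates 3 and 4. Of 7 plasmacytoid dendritic cell markers 2 reached a mean of 1 TPM, namely Bst2, itself a member, and Tcf4, at 14.0 to 25.8 TPM, while Siglech was at most 0.45 TPM and Ly6d at most 0.07 TPM; T and NK cell markers summed to at most 13 and 25 counts in a library. The part of proliferation, nuclear RNA and depth in the members' differences was not tested.

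Transcript tables gave the makeup of each member over 183 annotated transcripts. A protein-coding transcript led in 43 of 47 members, the leading transcript held a median of 90.6% of its gene, and in 44 members both kinds of transcript table named the same leader. The exceptions were mostly Oas and Mx genes. Oasl2-205, annotated for nonsense-mediated decay, held 59.9, 61.7, 60.6 and 54.7% of Oasl2, and the coding Oasl2-201 29.4, 23.2, 17.6 and 30.7%. Mx1-205, of the same class, led Mx1 with 49.1 ± 5.5% (SD, n = 4), but held 12.1% in the target tables. Mx2-202 led Mx2 with 73.9 ± 1.9% and is annotated, like its gene, as a polymorphic pseudogene. Xaf1-201, a short decay-class transcript, led Xaf1 with 41.7 ± 3.6%. In Oas1g the coding Oas1g-201 held 66.8, 70.4, 49.5 and 46.3% in replicates 1 to 4, and the target tables put Oas1g-203, of the decay class, first with 54.7%. In all, 6 members had over 20% of their expression in transcripts not annotated as protein-coding: Oasl2, Ddx58, Xaf1, Mx1, Oas1g and Mx2. Gbp5 had 18.2% in a retained-intron transcript in replicate 4 and 1.53 to 2.72% in the other 3. Retained-intron shares were also larger in replicates 3 and 4 than in 1 and 2 for most members with such transcripts. These were Ifi204, Parp14, Oas1g, Cmpk2, Eif2ak2, Herc6, Ifi35, Ifih1, Lgals9, Oas3, Oasl1, Parp9, Trim30a, Usp18, Xaf1 and Zbp1. Retained-intron shares were smaller there for Mx2 and Oas2, and did not divide in this way for Ifi44, Isg20, Mx1 and Oasl2. These percentages are estimates by the authors' tools, were not tested, and differ between tools for these genes.

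Levels depended on the table more than the order did. Gene-table TPM was a median of 2.82 times target-table TPM for the members, with a range of 2.13 to 3.48, while the 2 orders of mean TPM had a Spearman's rho of 0.990 across the 47 genes. By target-table TPM, 45 members averaged 1 TPM or more, with Isg20 and Mx2 below. Exon bases were shared with another annotated gene in 14 members.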

How the data were processed

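RNA of 4 libraries of 1 group was analysed. Members and lists were chosen with earlier results of these data known. The authors deposited, per library, gene tables with expected counts, TPM and posterior mean counts, a transcript table with the percent of a gene in each isoform, and target tables with estimated counts and TPM, per the file headers. The deposited text names mm10 and GENCODE M21. Aligner, quantifiers and strand of counting: not given in the sources used here. Reads of overlapping, antisense and near-identical genes cannot be told apart. Features that name no gene (26345, 0.0267 to 0.407% of the deposited counts) were left out.

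Expected counts were rounded, and genes averaging 10 or more counts per library entered edgeR 4.0.16 (quasi-likelihood, TMM scaling, R 4.3.3), adjusted by Benjamini-Hochberg over all 14041 genes. The lone library adds no residual degree of freedom, so it is assumed to vary like the other 3. The SE given with an edgeR change was derived from the test, as the absolute change over the square root of the F statistic. DESeq2 1.42.0, its size factors, no filter, the target tables, library totals and leaving out each replicate were alternatives. Log2 CPM had a prior count of 2, and log2 TPM a pseudocount of 1. Variation beyond counting was tested by a Poisson deviance per gene. Both tests were run on simulated data. For edgeR the planted changes were larger than nearly all member changes, so that run does not cover smaller ones. Per-library values were given for called members, the 3 most abundant of each role, and the 5 with the largest SD, and for 15 upstream genes, of which 1 is not reported here, and the 3 most abundant other interferon genes. The remaining steps ran in Python 3.11.15 with scipy 1.17.1, pandas 2.3.3 and matplotlib 3.10.9. The reads carry no molecular identifiers, so floors cover counting error only. Mnda of the wider list was not matched.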

Additional observations from a re-analysis of the deposited data

Results flagged for a closer look

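Results in which 1 of the 4 libraries lay far from the other 3 are listed here by the gap to the nearest library as a share of the whole range; chance flags about 1 in 20 groups of 4. On TMM-scaled log2 CPM this share was 0.961 for Ifit2, 0.939 for Parp14, 0.907 for Iigp1, 0.880 for Ifit3, 0.867 for Mx2, 0.866 for Gbp2, 0.851 for Ifi44 and 0.844 for Ifit3b, all with replicate 1 lowest. For Oas1a it was 0.890, with replicate 2 highest at 94.3 CPM beside 86.6 to 87.4 CPM, a narrow range.

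On TPM, which is relative to each library's own total, the share was 0.978 for Ifi204, 0.939 for Herc6, 0.845 for Ddx58, 0.832 for Samd9l and 0.832 for Parp9. In these 5 genes replicate 4 was highest, as with Ifi204 at 99.0 TPM beside 73.2 to 73.7 TPM. On TMM-scaled CPM Ifi204 was instead lowest in replicate 1, at 225 against 278 to 309, so the library that stands out differs with the scale.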

How the results depend on the processing

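The count of members called in replicate 1 was 24, and it was 24 with DESeq2's size factors, 27 with no filter, 30 with the DESeq2 Wald test, 16 with the target tables and 22 to 27 with 1 other replicate left out; every called fold kept its sign. The share of all tested genes called in replicate 1 moved too, and was lower with no filter and with the target tables than in the main setting. The members' median log2 fold change there was -0.57, against -0.55 with no filter and -0.43 with the target tables. The median SD of log2 CPM, 0.317, ranged from 0.125 to 0.398 with 1 replicate left out, the lowest value being the one without replicate 1. Counts of members at an extreme moved with the scaling. Highest in replicate 1 were 2 members, but 0 with DESeq2's size factors, 6 with library totals and 5 with the target tables. Lowest in replicate 2 was 1 member, and 0 in all 3 of those settings. With library totals 11 members were highest in replicate 2 (21 with TMM), 13 lowest (6) and 3 highest (6) in replicate 3, and 0 lowest in replicate 4 (1). With target-table counts, 5 were lowest (1) and 11 highest (18) in replicate 4. The median log2(TPM + 1), 4.40, was 3.03 in the target tables and 5.67 with TPM rescaled without the 7SL genes. No paired analysis was possible because the libraries form 1 group. With 4 libraries, 1 set against 3, the smallest called change was -0.52. Isg20, with 56 counts in replicate 1, is the member whose value rests on the fewest reads. The cause of these differences was not tested.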
